A study of Mus musculus with 36 samples.

Results

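The comparison described here sets the response of Bhas 42 cells to the highest dose of the silica NM-203 against their response to the tumour promoter TPA. For each gene it takes the change with NM-203 against water, takes away the change with TPA against DMSO, and asks whether the remainder, called the difference of effects, is larger than the spread between arrays. It rests on 16 of the 36 arrays of the study, chosen by their labels: 4 of cultures with NM-203 at 5 µg/cm², 4 of their water controls (H2O, 2%), 4 of cultures with TPA at 0.05 µg/ml (the phorbol ester 12-O-tetradecanoylphorbol-13-acetate) and 4 of their DMSO controls (0.1%). The other 20 arrays are of lower NM-203 doses, of diatomaceous earth and of the crystalline silica Min-U-Sil 5 with its own water control. All cultures were exposed for 48 h, from day 4 to day 6 after seeding, in medium with 5% serum. Silica was dosed per area and TPA per volume, so the doses are not matched, and each effect is measured against another vehicle. The study speaks of 4 independent experiments; which array came from which is not given in the labels, so p-values measure the spread between these samples, which may in part be technical.

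Bhas 42 is a single line of mouse fibroblasts made from the BALB/c 3T3 line by adding the viral oncogene v-Ha-ras, which all of the groups therefore carry, controls included. It is used in transformation assays, in which cells that have grown to a resting layer form foci after exposure to a tumour promoter. TPA is the classical promoter in such assays. It takes the place of diacylglycerol on protein kinase C, which passes the signal through Raf, MEK and the kinase ERK to transcription factors of the AP-1 family, and long exposure to TPA is known to deplete the responsive protein kinase C proteins. NM-203 is a synthetic amorphous silica powder, and cells are known to take up silica particles. In bulk RNA, fewer cells that express a gene and less RNA per cell cannot be told apart.

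Levels are given as log2 of the spot intensity minus the 75th percentile of the same array, so 0 lies at that percentile and negative levels lie below it. Effects and differences of effects are log2 values, given with the standard error (SE) of the limma fit and 4 arrays in each group. A gene counts as called at an adjusted p under 0.05 (limma, Benjamini-Hochberg over all genes tested). On the 16 arrays the 75th percentile lay at an intensity of 575.6 to 911, 55.1% to 67.2% of probes were well above background and 0 spots were saturated. Replicates of a group correlated with r of 0.981 to 0.993 across genes. Slide 1 of 5 held arrays of all 4 groups, but only 1 water and 1 DMSO array, and 1 NM-203 array was scanned on another day than the other 15. Water replicates 1 and 2 and DMSO replicates 1, 2 and 4 lay on slide 2. That slide held no array of TPA or of NM-203 at 5 µg/cm², so treatment and slide are in part confounded. DMSO and water arrays themselves differed in 0 of 32489 genes (0%), with 673 genes at an unadjusted p under 0.05.

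Both treatments moved a large part of the genes, NM-203 more of them, and genes changed by both moved mostly in the same direction. NM-203 changed 10740 of 32489 genes tested (33.1%), 4549 of them upwards (14%) and 6191 downwards (19.1%). TPA changed 3792 (11.7%), 1589 upwards (4.89%) and 2203 downwards (6.78%). Genes changed by both numbered 2920, which is 27.2% of the NM-203 calls and 77% of the TPA calls. Of these, 1185 were higher in both and 1604 lower in both, and 131, which is 0.403% of all genes tested, went in opposite directions. Across all 32489 genes the effects correlated with r = 0.559, across the 11612 called with either treatment with r = 0.684, and across the 2920 chosen for being called with both with r = 0.889; these describe genes, which are not independent. Among the 2920 the median size of the effect was 1.03 with NM-203 and 0.63 with TPA. The effects share no arrays.

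The difference of effects itself was called in 4807 genes (14.8%), 2514 with the NM-203 effect above the TPA effect (7.74%) and 2293 with it below (7.06%). In 3446 of them only the NM-203 effect was called, in 274 only the TPA effect, and in 154 neither. A further 802 moved the same way under both treatments but by different amounts; 309 of them rose further and 477 fell further with NM-203. The other 131 are those of opposite direction, of which 56 rose with NM-203 and fell with TPA (0.172%) and 75 did the reverse (0.231%). In 749 genes (2.31%) both effects were called with the same sign and the 95% interval of their difference stayed within a 1.5-fold difference either way; these are called changed alike below. Within slide 1, where each vehicle is a single array that is assumed to vary like the others, the difference was called in 304 genes and was lost in 77 of the genes named below, and with the slide as a block in 4676. With each array centred on its median in place of the 75th percentile, 1983 differences were called. Upward calls then made up 52.1% of the NM-203 calls instead of 42.4%, and 55.6% of the TPA calls instead of 41.9%, so the balance of upward and downward calls turned under both treatments.

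**Figure D1:**
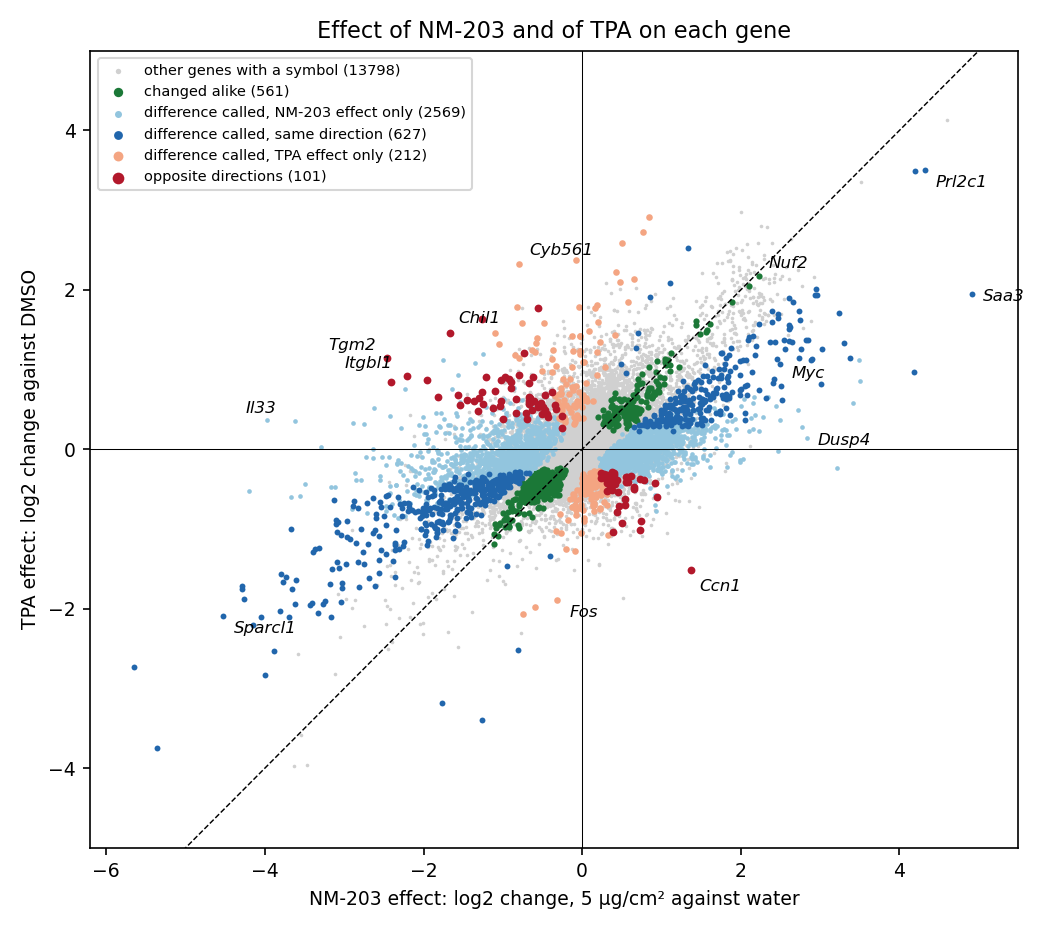
Each point is 1 of the 17868 genes tested that have a symbol, with the log2 change of NM-203 at 5 µg/cm² against water on the horizontal axis and that of TPA against DMSO on the vertical axis; colours give the pattern of calls and the dashed line marks equal effects. Among genes called in the difference, those with only the NM-203 effect called (1499 higher, 1070 lower) spread along the horizontal axis, and those of opposite direction lie in the upper left (57) and the lower right (44).

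Genes of cell division rose with both treatments. In the list for G2 and mitosis all 60 genes rose with NM-203 and all 60 with TPA, with median effects of 1.99 with NM-203 and 2.07 with TPA, and 1 of the 60 was called in the difference. Over all genes tested the medians were 0.01 with NM-203 and -0.04 with TPA. Nuf2, a kinetochore protein that binds microtubules, stood at 1.56, 1.4, 1.84 and 1.70 in NM-203 cultures, against -0.27, -0.57, -0.77 and -0.79 in water cultures. Its levels were 1.23, 1.19, 1.62 and 1.69 in TPA cultures, against -0.92, -0.64, -0.65 and -0.73 in DMSO cultures. Every treated array lay above every control array in both pairs. The rise was 4.67-fold with NM-203 and 4.50-fold with TPA, and the difference of effects was 0.05 ± 0.25 with a 95% interval of -0.46 to 0.56. Cdc45, a part of the replicative helicase, and the repair gene Brca1 also changed alike: their effects were 2.10 and 1.89 with NM-203, and 2.04 and 1.85 with TPA. An uncalled difference does not show equal effects, and the 1.5-fold bound was met by 2 of the 60 genes of this list; the median difference was -0.05, which turned to 0.03 with the arrays centred on their median and to 0.49 within slide 1.

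The exception among the mitotic genes was Mybl2, the B-Myb transcription factor that acts early in the division programme. It stood at 2.70, 2.68, 2.76 and 2.31 in NM-203 cultures, against -0.06, -0.24, -0.36 and -0.27 in water cultures. In TPA cultures it stood at 0.78, 0.76, 1.27 and 1.34, against -0.46, -0.11, -0.42 and -0.34 in DMSO cultures. Every treated array lay above every array of its vehicle. The effect was 2.84 ± 0.17 with NM-203 and 1.37 ± 0.17 with TPA, a difference of 1.48 ± 0.24 (adjusted p = 5.02e-05).

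DNA replication genes were raised by both treatments too, and further by NM-203 in a large share of the list. Of 48 replication and S-phase genes tested, 46 rose with NM-203 and 42 with TPA, with median effects of 1.80 with NM-203 and 1.16 with TPA, and 20 were called in the difference, all 20 with the larger rise under NM-203. These 20 are 41.7% of the list, beside 14.8% of all genes tested. The flap endonuclease Fen1, which trims Okazaki fragments, had effects of 2.08 with NM-203 and 0.81 with TPA, a difference of 1.27 ± 0.25 (adjusted p = 0.000575). Cdt1 and Orc1, which load the helicase onto origins, had effects of 2.61 and 2.54 with NM-203, and 1.36 and 1.37 with TPA. The primase subunit Prim1 followed with 1.81 with NM-203 and 0.62 with TPA, a difference of 1.18 (adjusted p = 0.000533). Within slide 1 the medians were 1.71 with NM-203 and 1.08 with TPA and 0 of the 48 differences were called. With the arrays centred on their median 9 were.

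Some genes were lowered alike. Dnmt3a, a DNA methyltransferase that sets new methylation, stood at 0.90, 0.80, 0.66 and 0.83 in NM-203 cultures, against 1.86, 1.93, 1.87 and 1.86 in water cultures, and at 1.05, 0.86, 0.66 and 0.78 in TPA cultures, against 1.85, 1.77, 1.70 and 1.99 in DMSO cultures. The treated arrays all lay below the controls, by 2.12-fold with NM-203 and 1.99-fold with TPA, and the difference of effects was -0.10 ± 0.15. Tcf7l2, a transcription factor of the Wnt pathway, had effects of -1.12 with NM-203 and -1.07 with TPA. The G protein subunit Gng8 and Hacd2, an enzyme of long fatty acid synthesis, had effects of -1.11 and -1.06 with NM-203, and -1.19 and -1.09 with TPA.

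The proliferins, prolactin-like secreted proteins that were found as genes of dividing fibroblasts, rose strongly under both treatments. Prl2c1 stood at 4.92, 5.01, 5.04 and 4.45 in NM-203 cultures, against 0.68, 0.25, 0.36 and 0.84 in water cultures. In TPA cultures it stood at 3.52, 3.72, 3.90 and 3.65, against 0.13, 0.30, 0.37 and 0.01 in DMSO cultures. Treated and control arrays were far apart in both pairs, and the NM-203 arrays lay above the TPA arrays. The rise was 20.0-fold with NM-203 and 11.3-fold with TPA, with a difference of 0.82 ± 0.21 (adjusted p = 0.00721). Prl2c5 gave 4.20 and 3.49 with a difference of 0.71 (adjusted p = 0.0246) that was no longer called without any 1 of 6 arrays (NM-203 replicates 1 and 3, water replicate 2, TPA replicate 2, DMSO replicates 2 and 3; adjusted p up to 0.0682). Prl2c3 gave 4.59 and 4.12 with a difference of 0.47 that was not called (adjusted p = 0.335). The sequences of these 3 genes are close to identical, and a probe for one may bind the others, which makes each single value uncertain. Prl2b1, the other family member tested, was above background on 0 of the 16 arrays. With the arrays centred on their median 0 differences were called in this family.

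**Figure D2:**
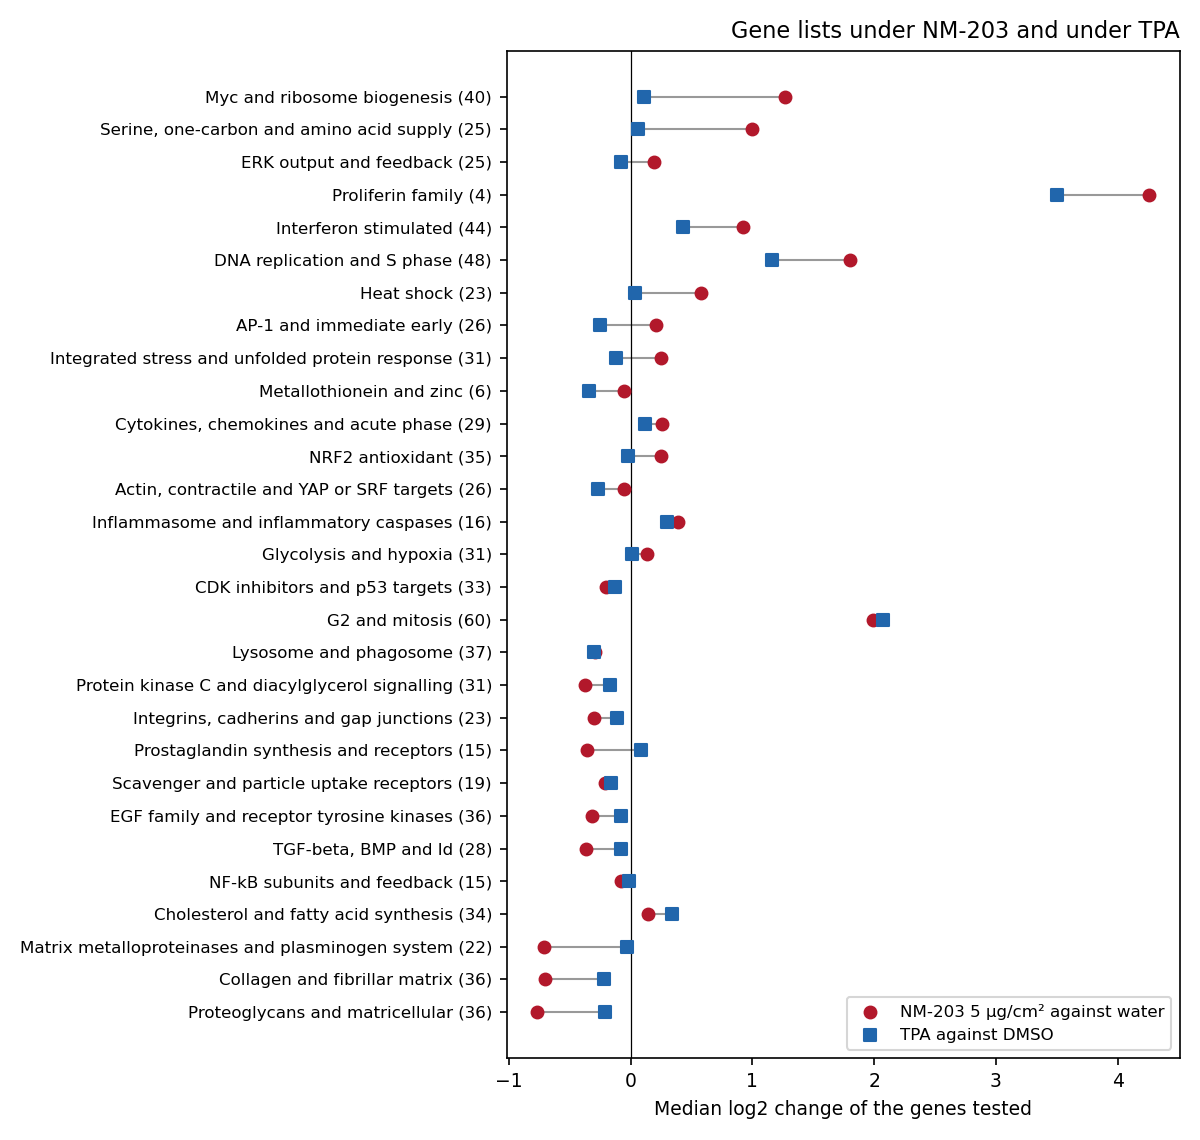
The median log2 change of each gene list is plotted, apart from the lists of cell type markers. Circles give NM-203 at 5 µg/cm² against water and squares give TPA against DMSO, with the number of genes tested in parentheses. Lists run from the highest to the lowest median difference of effects of their genes. The G2 and mitosis medians of 1.99 and 2.07 nearly coincide, while those of Myc and ribosome biogenesis lie 1.27 and 0.11 from 0.

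Along the pathway that TPA is known to act on, the proteins that bind TPA stand first. Of 31 genes of the protein kinase C and diacylglycerol list, 11 fell and 2 rose with NM-203, and 4 fell with TPA. In the difference 6 were called (3 with the arrays centred on their median), a share of 19.4% beside 14.8% of all genes. Over all genes tested NM-203 lowered 19.1% and TPA lowered 6.78%. Prkca, which codes for the classical isoform alpha that binds phorbol esters, stood at 0.17, 0.06, 0.20 and 0.49 in NM-203 cultures, against 1.37, 1.66, 1.71 and 1.61 in water cultures. In TPA cultures it stood at 1.12, 1.25, 1.35 and 1.36, against 1.68, 1.61, 1.79 and 1.96 in DMSO cultures. The mRNA was lower in all treated arrays of both pairs, 2.56-fold with NM-203 and 1.4-fold with TPA, and the difference of -0.86 ± 0.16 was called (adjusted p = 0.000243). The other phorbol-responsive isoforms did not differ by the test: Prkcd had effects of -0.38 with NM-203 and -0.22 with TPA, Prkce of 0.03 with NM-203 and 0.32 with TPA, and Prkch, above background on 0 NM-203 arrays and 2 of each other group, had a TPA effect of -0.86.

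Enzymes that make and remove diacylglycerol were split. The phospholipase Plcd1, which releases diacylglycerol, had effects of -1.15 with NM-203 and -0.17 with TPA, with a difference of -0.98 (adjusted p = 6.48e-05). Among the kinases that consume it, Dgka had effects of -1.20 with NM-203 and -0.31 with TPA and a difference of -0.89 (adjusted p = 0.000236), whereas Dgke and Dgkz rose with NM-203, by 0.47 and 0.57, and had TPA effects of -0.30 and -0.12. With the arrays centred on their median the differences of Dgka and Dgkz were not called (adjusted p = 0.0655 and 0.149). The protein kinase C substrate Marcks and the kinase Prkd2 fell alike, with effects of -0.41 and -0.42 with NM-203, and -0.36 and -0.43 with TPA.

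Genes that report ERK activity separated the treatments in 1 direction. Of 25 genes of the ERK output and feedback list, 13 were called with the NM-203 effect above the TPA effect and 0 with it below. With the arrays centred on their median these counts were 10 and 0. NM-203 raised 11 and lowered 4, and TPA raised 4 and lowered 8. Over all genes tested NM-203 raised 14% and lowered 19.1%, and TPA raised 4.89% and lowered 6.78%. The share called in the difference was 52%, beside 14.8% of all genes. Part of the 13 fell with TPA and had no called rise with NM-203. The 4 genes that NM-203 lowered are not among those named. Dusp4, a nuclear phosphatase that ERK induces and that switches ERK off, stood at -0.15, -0.21, -0.11 and -0.52 in NM-203 cultures, against -2.78, -3.13, -3.14 and -3.27 in water cultures. Its levels in TPA cultures were -3.16, -3.09, -2.83 and -2.70, against -3.46, -2.92, -2.67 and -3.27 in DMSO cultures. NM-203 arrays stood clear of all the others, while TPA and DMSO arrays overlapped. The gene was 7.12-fold higher with NM-203, the effect with TPA was 0.14 ± 0.18, and the difference was 2.69 ± 0.26 (adjusted p = 6.13e-08).

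The ETS factors Etv4 and Etv5, both transcribed downstream of ERK, also differed. Another Etv factor of the list fell under both treatments, with effects of -1.12 with NM-203 and -0.60 with TPA. Its difference of -0.51 was not called (adjusted p = 0.0751). Etv5 stood at 0.63, 0.81, 0.65 and 0.34 in NM-203 cultures, against 0.01, -0.06, 0.14 and 0.17 in water cultures, and at -1.15, -0.74, -0.64 and -0.40 in TPA cultures, against -0.16, 0.07, -0.21 and 0.15 in DMSO cultures. NM-203 arrays lay above their controls and TPA arrays below theirs, without overlap. The effects of 0.54 with NM-203 and -0.70 with TPA differed by 1.24 ± 0.18 (adjusted p = 8.77e-06). For Etv4 the effects were 1.70 with NM-203 and 0.29 with TPA, for the growth factor Hbegf 1.82 with NM-203 and 0.18 with TPA, and for the phosphatase gene Dusp1, opposite like Etv5, 0.55 and -0.62. Il1rl1, a known growth-signal-induced receptor of fibroblasts, rose under both, by 2.72 with NM-203 and 2.25 with TPA, and the epidermal growth factor ligand gene Ereg and Dusp14 changed alike, upwards.

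AP-1 and immediate early genes followed the same order of the effects, and in part fell with TPA. Of 26 genes 9 were called with the NM-203 effect above the TPA effect and 0 with it below (6 and 0 with the arrays centred on their median). Some of the called genes, Fosl1 among them, are counted in the ERK list too. NM-203 raised 7 and lowered 1, and TPA raised 3 and lowered 8. The 9 called in the difference are 34.6% of the list, beside 14.8% of all genes tested. Fos, the AP-1 subunit that growth signals induce first, stood at -3.17, -3.15, -2.32 and -3.05 in NM-203 cultures, against -2.88, -2.46, -2.89 and -2.22 in water cultures, which overlapped. Its levels in TPA cultures were -4.67, -4.71, -4.02 and -3.62, against -2.87, -2.26, -2.61 and -1.71 in DMSO cultures. TPA arrays were the lowest of the 4 groups, 3.71-fold below DMSO, and the effect with NM-203 was -0.31 ± 0.24. The difference was 1.58 ± 0.34 (adjusted p = 0.00114).

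The orphan nuclear receptor Nr4a1 had effects of -0.80 with NM-203 and -2.51 with TPA, with a difference of 1.71 (adjusted p = 0.00749). By contrast Fosl1, the AP-1 subunit Fra-1 that persists under lasting ERK activity, stood at 0.42, 0.25, 0.76 and 0.10 in NM-203 cultures, against -2.02, -1.94, -1.99 and -1.88 in water cultures. In TPA cultures Fosl1 stood at -1.85, -1.57, -1.03 and -0.48, against -2.55, -1.91, -1.60 and -1.49 in DMSO cultures, and these overlapped. It was 5.05-fold higher with NM-203, and the difference from the TPA effect of 0.66 was 1.68 ± 0.34 (adjusted p = 0.000706). The small Maf factor Maff gave 1.41 with NM-203 and -0.31 with TPA. Jun itself changed alike, with 0.43 under each treatment, and Junb rose under both, by 0.94 with NM-203 and 0.60 with TPA. On slide 1 alone the median effects were 0.07 with NM-203 and -0.29 with TPA for the ERK list and 0.30 with NM-203 and -0.13 with TPA for the AP-1 list, and 1 difference was called in each; over all 4 arrays a group the medians were 0.19 with NM-203 and -0.08 with TPA, and 0.21 with NM-203 and -0.25 with TPA.

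**Figure D3:**
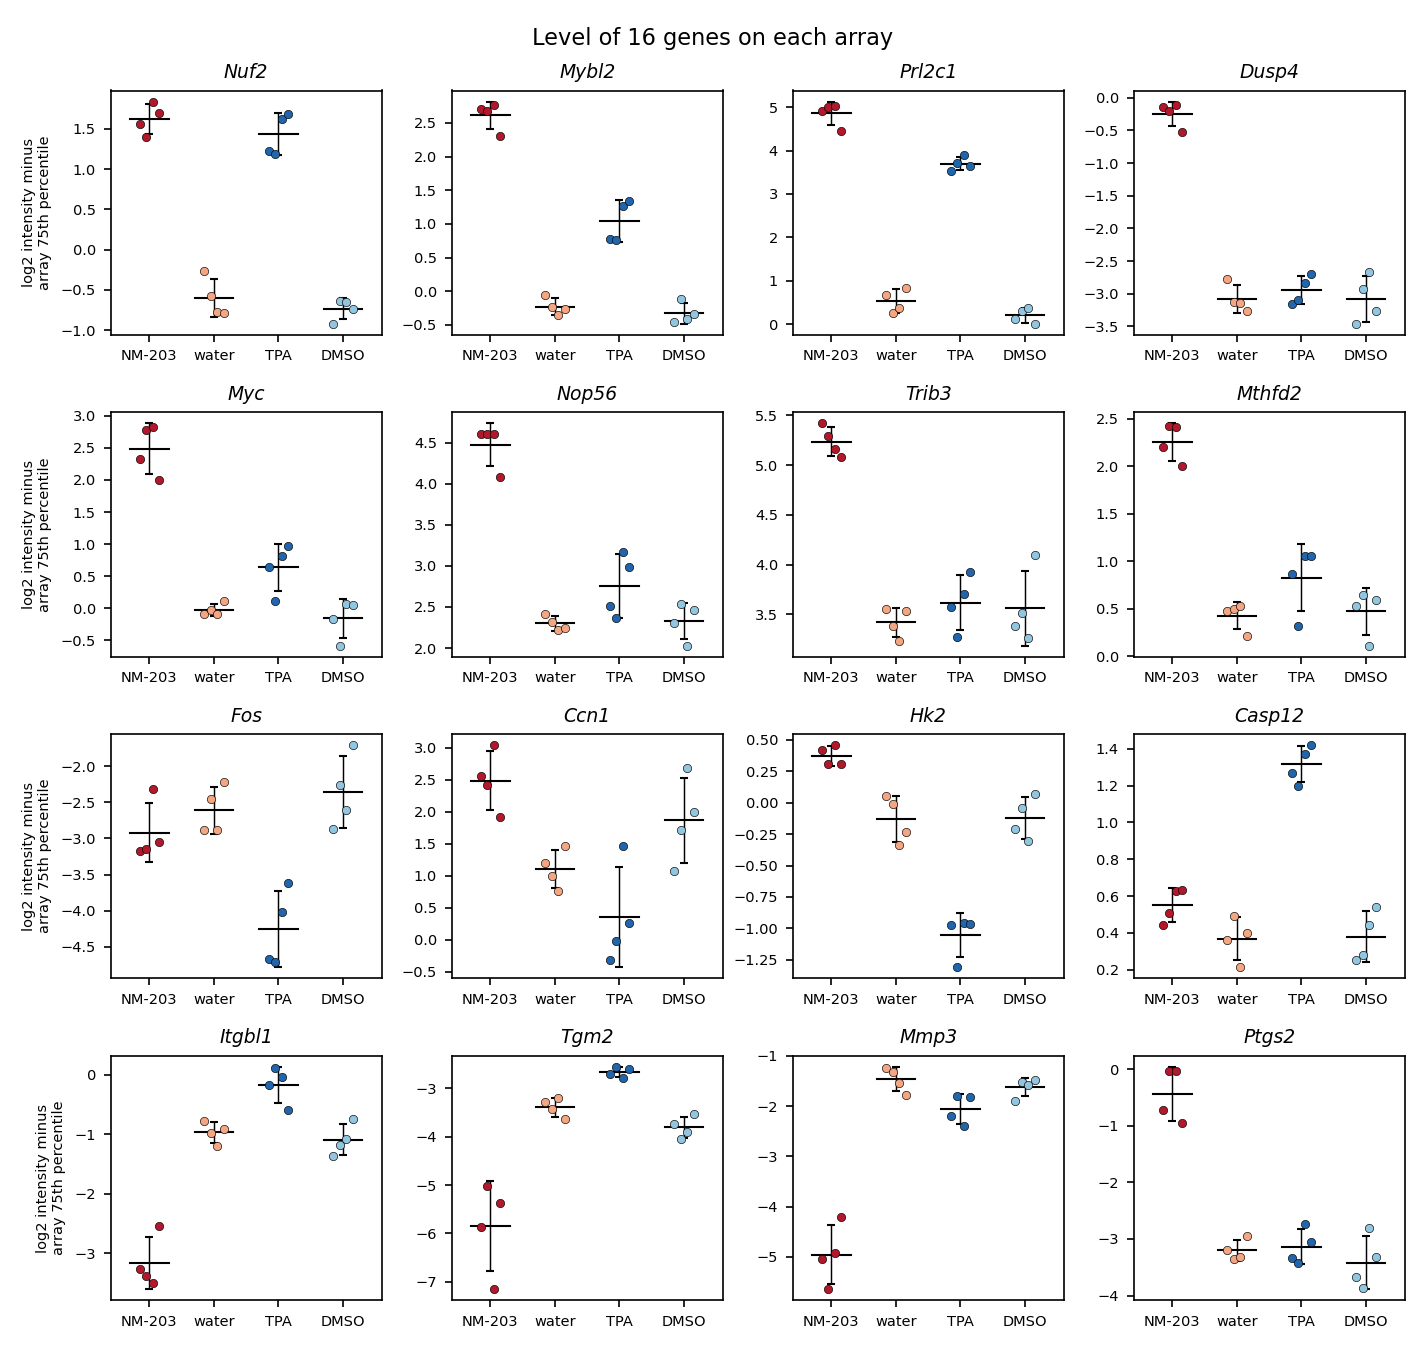
The level of 16 genes on each array, as log2 intensity minus the 75th percentile of the array, is plotted for cultures with NM-203 at 5 µg/cm², water, TPA and DMSO; points are arrays, spread sideways for view, the line is the mean and the bar 1 SD (n = 4 arrays a group). Nuf2 is high in both treated groups, Dusp4, Trib3 and Ptgs2 are high with NM-203, Casp12 with TPA, and Ccn1, Hk2, Itgbl1 and Tgm2 move in opposite directions.

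The share of genes called in the difference was highest, among the 34 lists, for Myc and ribosome production. Of 40 genes 33 rose and 4 fell with NM-203, whereas 7 rose and 2 fell with TPA; the median effects were 1.27 with NM-203 and 0.11 with TPA, and 33 of 40 (82.5%) were called in the difference, 30 of them higher. Myc, the transcription factor that drives ribosome production and growth, stood at 2.33, 2.78, 2.83 and 2.00 in NM-203 cultures, against -0.09, -0.03, -0.09 and 0.11 in water cultures. Its levels in TPA cultures were 0.65, 0.11, 0.81 and 0.97, against -0.16, -0.58, 0.06 and 0.05 in DMSO cultures. All treated arrays lay above their controls, with a narrow gap for TPA. The rise was 5.70-fold with NM-203 and 1.73-fold with TPA, and the difference was 1.72 ± 0.30 (adjusted p = 0.000133).

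Nop56, a core protein of the particles that methylate ribosomal RNA, stood at 4.61, 4.61, 4.61 and 4.08 in NM-203 cultures, against 2.41, 2.32, 2.22 and 2.24 in water cultures. Its levels were 2.51, 2.36, 3.17 and 2.99 in TPA cultures, against 2.30, 2.54, 2.03 and 2.46 in DMSO cultures. NM-203 arrays stood above the other 12, and TPA and DMSO arrays overlapped. The effects of 2.18 with NM-203 and 0.42 with TPA differed by 1.75 ± 0.22 (adjusted p = 1.37e-06). The nucleolar helicase Ddx21 had effects of 2.52 with NM-203 and 0.62 with TPA and the processing factor Rrp12 of 1.86 with NM-203 and -0.08 with TPA, with differences of 1.91 and 1.94 (adjusted p = 3.68e-06 and 1.20e-05). The 3 genes of this list with the NM-203 effect below the TPA effect, named after their values were seen, were Mxi1, Mxd1 and Mxd4, which code for partners of Max that oppose Myc: their effects were -0.49, -1.61 and -1.78 with NM-203, and 0.06, -0.63 and -0.57 with TPA. The call of Mxi1 was lost without any 1 of 8 arrays (replicates 1 and 2 of NM-203, 1 and 3 of water, 2 and 3 of TPA, 2 and 4 of DMSO; adjusted p up to 0.0675). Within slide 1 the medians of the list were 1.12 with NM-203 and 0.20 with TPA and 3 differences were called.

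Supply and stress genes showed the same one-sided pattern. Of 25 genes for serine, one-carbon units and amino acid uptake 17 rose and 2 fell with NM-203, 6 rose and 3 fell with TPA, and 16 were called in the difference, all higher. These 16 are 64% of the list, beside 14.8% of all genes tested. Mthfd2, the mitochondrial enzyme that feeds one-carbon units to nucleotide synthesis, stood at 2.2, 2.42, 2.41 and 2.00 in NM-203 cultures, against 0.47, 0.49, 0.53 and 0.21 in water cultures, and at 0.87, 0.32, 1.06 and 1.06 in TPA cultures, against 0.53, 0.65, 0.11 and 0.59 in DMSO cultures. NM-203 arrays stood apart from the other 12, and TPA and DMSO overlapped. The effects of 1.83 with NM-203 and 0.36 with TPA differed by 1.47 ± 0.20 (adjusted p = 5.25e-06). Psph, the last enzyme of serine synthesis, had effects of 1.57 with NM-203 and 0.24 with TPA, the glycine transporter Slc6a9 of 1.74 with NM-203 and 0.48 with TPA, and the arginine transporter Slc7a1 of 1.16 with NM-203 and -0.16 with TPA. On slide 1 alone the medians were 0.92 with NM-203 and 0.17 with TPA and 0 differences were called.

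The integrated stress response, in which phosphorylation of eIF2 lets the factor ATF4 be translated, divided likewise. Of 31 genes of this and the unfolded protein response 14 rose and 1 fell with NM-203, 1 rose and 1 fell with TPA, and 13 were called higher and 1 lower in the difference. The share called was 45.2%, beside 14.8% of all genes tested. Trib3, a pseudokinase that ATF4 induces, stood at 5.42, 5.29, 5.16 and 5.08 in NM-203 cultures, against 3.55, 3.38, 3.23 and 3.53 in water cultures. It stood at 3.57, 3.27, 3.70 and 3.93 in TPA cultures, against 3.38, 3.51, 3.26 and 4.10 in DMSO cultures. NM-203 arrays were above all others, and TPA arrays lay among the DMSO arrays. Trib3 was 3.52-fold higher with NM-203, with a TPA effect of 0.06 and a difference of 1.76 ± 0.23 (adjusted p = 2.72e-06). Atf4 itself gave 1.13 with NM-203 and -0.11 with TPA, the eIF2 phosphatase subunit Ppp1r15a 1.17 with NM-203 and -0.36 with TPA, and Chac1, an enzyme that degrades glutathione, 1.37 with NM-203 and 0.08 with TPA. The gene with the difference lower, named after its values were seen, was Eif2ak3, which codes for the kinase PERK, with effects of -0.93 with NM-203 and -0.37 with TPA; within slide 1 the list medians were 0.12 with NM-203 and -0.04 with TPA and 0 differences were called, and with the arrays centred on their median 8 were.

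The promoter of Chac1 is shown as an example of the sequence behind this list, as the 250 bases before its RefSeq start on GRCm38.p6, chr2:119350992-119351241, plus strand. Capitals mark the amino acid response core, searched as TGATGNAA on both strands and found here on the reverse strand. It occurs in 6 of the 31 promoter windows that 29 genes of the list have (19.4%). Among the windows of genes tested it occurs in 2.6%, and among the 32851 promoter windows of all genes in 3.45%.
Chac1: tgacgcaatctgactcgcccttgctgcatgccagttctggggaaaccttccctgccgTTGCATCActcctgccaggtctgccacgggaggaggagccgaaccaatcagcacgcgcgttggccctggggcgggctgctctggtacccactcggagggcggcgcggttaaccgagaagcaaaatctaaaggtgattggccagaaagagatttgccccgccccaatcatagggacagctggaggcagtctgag
A match describes the letters of this window and was not tested as a site.

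Chaperones and redox genes were raised by NM-203 in part. Of 23 heat shock genes 16 rose and 2 fell with NM-203 and 2 rose and 2 fell with TPA, with 10 differences called higher and 1 lower (4 and 0 with the arrays centred on their median). Hsph1, a chaperone of the cytosol, had effects of 1.38 with NM-203 and 0.33 with TPA, Hsp90aa1 of 1.06 with NM-203 and 0.06 with TPA, and the mitochondrial chaperones Hspa9 and Hspe1 of 1.04 and 0.90 with NM-203, and 0.13 and 0.05 with TPA. Of 35 NRF2 antioxidant genes 12 were called with the NM-203 effect higher and 5 with it lower (7 and 2 with that centring). The share called in the difference was 47.8% in the heat shock list and 48.6% in the NRF2 list, beside 14.8% of all genes tested. Gclc, the rate-limiting enzyme of glutathione synthesis, stood at 1.11, 0.95, 1.22 and 0.82 in NM-203 cultures, against -0.39, -0.52, -0.53 and -0.35 in water cultures. Its levels in TPA cultures were -0.22, -0.30, -0.19 and -0.21, against -0.50, -0.47, -0.54 and -0.56 in DMSO cultures. TPA arrays lay above DMSO without overlap, but the effect of 0.29 was not called (adjusted p = 0.0683), and the difference from the NM-203 effect of 1.47 was 1.19 ± 0.15 (adjusted p = 1.32e-06). The glutathione transferase Gsta3 gave 1.14 with NM-203 and -0.34 with TPA. The detoxifying enzyme Aox1 went the other way, with effects of -1.70 with NM-203 and 0.31 with TPA.

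Genes of the extracellular matrix fell with NM-203 in larger number and further than with TPA. Of 36 genes of the collagen and fibrillar matrix list 22 fell and 0 rose with NM-203, 13 fell and 2 rose with TPA, and 17 were called in the difference, all lower. These 17 are 47.2% of the list, beside 14.8% of all genes tested. Col16a1, a collagen that links fibrils to other matrix, stood at 2.55, 2.52, 2.12 and 2.56 in NM-203 cultures, against 4.10, 4.36, 4.27 and 4.31 in water cultures. The TPA cultures had levels of 4.22, 4.34, 4.13 and 4.26, against 4.19, 4.29, 4.17 and 4.37 in DMSO cultures. The 12 arrays without NM-203 lay within a narrow band. Col16a1 was 3.54-fold lower with NM-203, with a TPA effect of -0.02 ± 0.11 and a difference of -1.81 ± 0.16 (adjusted p = 1.94e-08). The microfibril protein Mfap5 fell with NM-203 by 1.31 and rose with TPA by 0.49. Col5a3, which helps to start collagen fibrils, fell under both, by 2.59 with NM-203 and 0.86 with TPA, with a difference of -1.73 (adjusted p = 4.08e-06).

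Proteoglycans and matricellular proteins were lower too: of 36 genes 22 fell and 4 rose with NM-203, 9 fell and 7 rose with TPA, and 20 were called lower and 1 higher in the difference. The share called was 58.3%, beside 14.8% of all genes tested. Sparcl1, a secreted glycoprotein of resting tissue, stood at -1.06, -1.33, -2.02 and -1.12 in NM-203 cultures, against 2.97, 3.37, 3.08 and 3.15 in water cultures, and at 0.68, 0.85, 0.40 and 0.51 in TPA cultures, against 2.64, 2.65, 2.54 and 2.97 in DMSO cultures. The groups formed steps without overlap between treated and control arrays, 23-fold lower with NM-203 and 4.27-fold lower with TPA, and the difference was -2.43 ± 0.25 (adjusted p = 1.67e-07). The basement membrane protein Nid2 was above background on 0 of 4 NM-203 arrays, at least 2.30-fold lower than in water, and had a TPA effect of 0.03, and the laminin chain Lama4 had effects of -2.48 with NM-203 and -0.59 with TPA. The gene called higher, Thbs1, which codes for thrombospondin and was picked after its values were seen, had effects of -0.09 with NM-203 and -1.27 with TPA. Within slide 1 the medians were -0.75 with NM-203 and -0.12 with TPA for the collagen list and -0.62 with NM-203 and -0.24 with TPA for the proteoglycan list, against -0.70 with NM-203 and -0.22 with TPA, and -0.77 with NM-203 and -0.21 with TPA, over all arrays, and the differences called there numbered 2 in the collagen list and 3 in the other. With the arrays centred on their median they numbered 5 and 12.

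Matrix metalloproteinases, the enzymes that cut this matrix and that TPA is known to induce through AP-1 in many cells, did not rise with TPA here as a group. Of 22 genes of the metalloproteinase and plasminogen list 13 fell and 2 rose with NM-203, 5 fell and 1 rose with TPA, and 9 were called lower and 1 higher in the difference. The share called was 45.5%, beside 14.8% of all genes tested. The promoters of Mmp3 and Mmp13, the stromelysin and collagenase genes that carry the textbook AP-1 site, are shown as the 250 bases before their RefSeq starts on GRCm38.p6 (chr9:7445572-7445821 and chr9:7272264-7272513, both plus strand). Capitals mark the AP-1 site, searched as TGANTCA on both strands, which begins 46 bases before the start in Mmp3 and 35 bases before it in Mmp13.
Mmp3: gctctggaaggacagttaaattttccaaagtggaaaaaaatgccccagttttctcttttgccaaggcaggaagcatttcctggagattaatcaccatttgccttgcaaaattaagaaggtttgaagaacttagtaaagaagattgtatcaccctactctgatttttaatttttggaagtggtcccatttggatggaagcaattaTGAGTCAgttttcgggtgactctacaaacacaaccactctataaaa
Mmp13: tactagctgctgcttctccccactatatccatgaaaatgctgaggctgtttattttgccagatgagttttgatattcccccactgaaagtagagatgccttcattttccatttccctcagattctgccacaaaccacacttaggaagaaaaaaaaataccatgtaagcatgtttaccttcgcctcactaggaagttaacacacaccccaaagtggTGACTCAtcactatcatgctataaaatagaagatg
The site occurs in 5 of the 17 promoter windows that 15 genes of the list have (29.4%). Among the windows of genes tested it occurs in 5.65%, and among the windows of all genes in 6.75%.

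Both of these genes were lower with NM-203. Mmp3 stood at -5.05, -5.64, -4.93 and -4.21 in NM-203 cultures, where 2 of 4 arrays were well above background, against -1.23, -1.31, -1.53 and -1.78 in water cultures. Its levels were -2.19, -1.80, -2.40 and -1.82 in TPA cultures, against -1.89, -1.52, -1.57 and -1.48 in DMSO cultures. NM-203 arrays lay far below the rest, and TPA and DMSO overlapped. The NM-203 effect was -3.50 ± 0.23, the TPA effect -0.44 ± 0.23, and the difference -3.06 ± 0.33 (adjusted p = 2.51e-07).

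Mmp13 stood at -4.62, -4.30, -4.54 and -4.19 in NM-203 cultures, against -2.60, -2.68, -2.47 and -2.72 in water cultures, and at -2.44, -2.27, -2.47 and -1.80 in TPA cultures, against -3.0, -2.46, -2.33 and -2.30 in DMSO cultures. Again NM-203 arrays alone stood apart. Its effects of -1.79 with NM-203 and 0.27 with TPA differed by -2.07 ± 0.30 (adjusted p = 1.05e-05). The gelatinase Mmp9 fell under both, 8.72-fold with NM-203 and 1.56-fold with TPA, with a difference of -2.49 (adjusted p = 2.91e-07), and Plat, the tissue plasminogen activator, had effects of -1.4 with NM-203 and 0.16 with TPA. Plaur, the receptor of urokinase, was the gene called higher, picked after its values were seen, with effects of 0.81 with NM-203 and -0.15 with TPA. Within slide 1 the medians of the list were -0.83 with NM-203 and -0.06 with TPA, against -0.71 with NM-203 and -0.03 with TPA over all arrays, and 2 differences were called. The TPA median turned to 0.01 with normexp background correction.

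Interferon stimulated genes rose with both treatments and further with NM-203. Of 44 genes 37 rose with NM-203 and 21 with TPA, 0 fell with either, and 22 were called in the difference, all higher. These 22 are 50% of the list, beside 14.8% of all genes tested. Rsad2 codes for viperin, an antiviral enzyme. It stood at 1.59, 1.78, 1.96 and 1.60 in NM-203 cultures, against -0.80, -0.87, -1.59 and -1.87 in water cultures. In TPA cultures it stood at -0.31, -1.16, -0.29 and -0.44, against -1.65, -1.49, -1.09 and -1.25 in DMSO cultures. The NM-203 arrays were well separated from water, while 1 TPA array lay within the DMSO range. The rise was 8.09-fold with NM-203 and 1.77-fold with TPA, and the difference was 2.2 ± 0.29 (adjusted p = 3.37e-06). Oasl1 and Oas1g, of the oligoadenylate synthetase family, had effects of 3.38 and 2.42 with NM-203, and 1.14 and 0.88 with TPA, and the chemokine Cxcl10 of 2.74 with NM-203 and 1.15 with TPA. Within slide 1 the medians were 1.23 with NM-203 and 0.23 with TPA, against 0.93 with NM-203 and 0.43 with TPA over all arrays, and 12 differences were called. With the arrays centred on their median 13 differences were called, and 9 genes rose with TPA.

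The Rsad2 promoter is shown as an example of the sequence in this list, as the 250 bases before its RefSeq start on GRCm38.p6, chr12:26456453-26456702, minus strand. Capitals mark the interferon response core, searched as GAAA, any 2 bases and GAAA on both strands and here on the reverse strand. It is found in 17 of the 44 promoter windows that 36 genes of the list have (38.6%). Among the windows of all genes tested it is found in 2.86%, and among all windows in 2.98%.
Rsad2: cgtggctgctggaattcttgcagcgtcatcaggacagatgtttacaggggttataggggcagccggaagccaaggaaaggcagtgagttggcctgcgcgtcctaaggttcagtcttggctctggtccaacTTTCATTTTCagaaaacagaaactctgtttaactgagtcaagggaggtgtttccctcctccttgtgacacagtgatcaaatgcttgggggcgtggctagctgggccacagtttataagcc
As above, this describes the window's letters only.

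Secreted mediators went both ways. Of 29 cytokine, chemokine and acute-phase genes 8 were called with the NM-203 effect higher and 5 with it lower (6 and 2 with the arrays centred on their median). The share called was 44.8%, beside 14.8% of all genes tested. Saa3, an acute-phase protein that fibroblasts and macrophages secrete, stood at 1.30, 1.5, 1.71 and 0.27 in NM-203 cultures, against -3.33, -4.25, -3.55 and -3.78 in water cultures. It stood at -1.19, -2.17, -1.41 and -2.07 in TPA cultures, against -3.84, -3.51, -3.56 and -3.71 in DMSO cultures. All treated arrays were above their controls, with 1 NM-203 array below the other 3. The effects of 4.92 with NM-203 and 1.94 with TPA differed by 2.98 ± 0.39 (adjusted p = 2.72e-06). The interleukin 1 receptor antagonist Il1rn was above background on 4 NM-203 arrays, 2 TPA arrays and 0 arrays of each vehicle, and it was at least 2.37-fold higher with NM-203 than with water.

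Il33, an alarmin held in the nucleus of resting fibroblasts, stood at -6.37, -6.01, -7.41 and -6.04 in NM-203 cultures, not well above background on any array, against -2.59, -3.03, -2.96 and -2.80 in water cultures. In TPA cultures it stood at -2.17, -2.25, -2.71 and -2.50, against -2.94, -2.98, -2.51 and -2.61 in DMSO cultures. NM-203 arrays lay far below the rest, and TPA and DMSO overlapped. It was at least 5.02-fold lower with NM-203, against the mean of the lowest signals well above background, while its TPA effect was 0.36 (adjusted p = 0.385); the fitted difference was -3.97 (adjusted p = 1.01e-08). The complement component C3 had effects of -2.08 with NM-203 and -0.43 with TPA.

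Prostaglandin genes also differed between the treatments. In their list 40% of the 15 genes were called in the difference, beside 14.8% of all genes tested. Ptgs2, the inducible cyclooxygenase that TPA raises within hours in many cells, stood at -0.72, -0.03, -0.03 and -0.95 in NM-203 cultures, against -3.20, -3.36, -3.31 and -2.94 in water cultures. After 48 h its levels were -3.34, -3.43, -2.74 and -3.06 in TPA cultures, against -3.67, -3.87, -2.80 and -3.32 in DMSO cultures. NM-203 arrays lay above all others, and TPA and DMSO arrays overlapped. Ptgs2 was 6.81-fold higher with NM-203, with a TPA effect of 0.28 ± 0.22 and a difference of 2.49 ± 0.32 (adjusted p = 2.06e-06).

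Ptgds, which makes prostaglandin D2, stood at -3.35, -2.97, -3.71 and -2.98 in NM-203 cultures, against 1.17, 1.32, 0.82 and 0.85 in water cultures, and at -0.46, -0.10, -1.22 and -1.15 in TPA cultures, against 0.80, 1.04, 1.04 and 1.05 in DMSO cultures. Both treatments lowered it on every array, 19.6-fold with NM-203 and 3.28-fold with TPA, with a difference of -2.58 ± 0.35 (adjusted p = 6.05e-06). The prostacyclin receptor Ptgir was above background on 0 NM-203 arrays and all 12 others, at least 4.75-fold lower with NM-203, with a TPA effect of -1.24. The receptor Ptgfr had effects of -1.85 with NM-203 and 0.21 with TPA, and Ptger1, above background on 1 NM-203 array, of -2.68 with NM-203 and -1.61 with TPA. Of the 15 genes of this list, 3 rose and 6 fell with NM-203, 0 rose and 5 fell with TPA, and 2 were called higher and 4 lower in the difference (2 and 2 with the arrays centred on their median); Ptgs1, the constant cyclooxygenase, had effects of 0.28 with NM-203 and 0.31 with TPA.

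Among genes of opposite direction, the difference was at least 2-fold in 64 of the 75 that fell with NM-203 and rose with TPA, and in 24 of the 56 that did the reverse. Itgbl1, a secreted protein with integrin-like repeats, stood at -3.27, -3.38, -3.50 and -2.54 in NM-203 cultures, against -0.78, -0.99, -1.20 and -0.92 in water cultures. It stood at -0.17, 0.12, -0.05 and -0.59 in TPA cultures, against -1.37, -1.18, -1.08 and -0.74 in DMSO cultures. Neither pair overlapped, and the effects of -2.2 with NM-203 and 0.92 with TPA differed by -3.12 ± 0.23 (adjusted p = 1.65e-09). Chil1, a chitinase-like secreted protein, stood at -3.93, -3.75, -3.28 and -3.73 in NM-203 cultures, against -1.93, -1.65, -2.31 and -2.14 in water cultures, and at -0.53, -0.56, -1.01 and -0.74 in TPA cultures, against -2.16, -2.11, -2.30 and -2.09 in DMSO cultures. The 4 groups fell into 3 bands, the NM-203 arrays lowest, the vehicles between and the TPA arrays highest. Its effects were -1.67 with NM-203 and 1.45 with TPA (difference -3.12 ± 0.33, adjusted p = 2.14e-07).

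Tgm2, the tissue transglutaminase that crosslinks proteins, stood at -5.86, -5.02, -7.15 and -5.36 in NM-203 cultures, where 1 of 4 arrays was well above background, against -3.28, -3.43, -3.20 and -3.64 in water cultures. Its levels in TPA cultures were -2.70, -2.56, -2.79 and -2.59, against -3.74, -4.05, -3.90 and -3.53 in DMSO cultures. Both shifts were without overlap, and the effects of -2.46 with NM-203 and 1.14 with TPA differed by -3.60 ± 0.37 (adjusted p = 1.57e-07). The calcium-binding matrix protein Smoc2 had effects of -1.26 with NM-203 and 1.63 with TPA, and the ubiquitin-like modifier Ubd of -1.95 with NM-203 and 0.87 with TPA. With Ces1f, Megf6 and Plxdc1, whose differences were -3.25, -2.47 and -2.33, these 5 genes had the 8 largest differences of this kind among genes with a symbol. Tgfbi, a matrix protein that TGF-beta induces, came below them, with effects of -1.46 with NM-203 and 0.62 with TPA.

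The genes that rose with NM-203 and fell with TPA were led by Ccn1, a matricellular protein and immediate early target of SRF and YAP. It stood at 2.55, 2.42, 3.04 and 1.92 in NM-203 cultures, against 1.20, 1.00, 0.77 and 1.46 in water cultures. Its TPA levels were -0.32, -0.02, 1.47 and 0.26, against 1.07, 1.71, 2.68 and 2.00 in DMSO cultures. NM-203 arrays lay above water, whereas the highest TPA array, of slide 1, lay within the DMSO range. The effects of 1.38 with NM-203 and -1.51 with TPA differed by 2.89 ± 0.44 (adjusted p = 2.55e-05).

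Hk2, the hexokinase that commits glucose in growing cells, stood at 0.42, 0.31, 0.46 and 0.30 in NM-203 cultures, against 0.05, -0.01, -0.34 and -0.23 in water cultures, and at -0.97, -1.31, -0.96 and -0.97 in TPA cultures, against -0.21, -0.04, -0.31 and 0.07 in DMSO cultures. All 4 shifted arrays of each treatment lay outside the range of their vehicle. The effects were 0.51 with NM-203 and -0.93 with TPA, a difference of 1.44 ± 0.22 (adjusted p = 2.65e-05). Hpdl gave 0.72 with NM-203 and -1.01 with TPA, Larp1b 0.74 with NM-203 and -0.89 with TPA, and Lcp1, the actin bundler L-plastin, 0.39 with NM-203 and -1.04 with TPA. Across the glycolysis and hypoxia list of 31 genes 7 were called higher and 4 lower (2 and 1 with the arrays centred on their median). Together they are 35.5% of the list, beside 14.8% of all genes tested. The lactate carrier Slc16a1 had effects of 0.85 with NM-203 and -0.33 with TPA and the enolase Eno2 of -1.39 with NM-203 and -0.32 with TPA.

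Few genes were moved by TPA alone, or further by TPA in the same direction. Only the TPA effect was called in 274 of the 4807 differences, and 8 genes rose further and 7 fell further with TPA. The 131 genes of opposite direction are not in these counts, and some of them, such as Hk2 and Lcp1, moved further with TPA. Ccn5, a matricellular protein that restrains proliferation of muscle cells, stood at 1.78, 1.91, 1.95 and 2.02 in NM-203 cultures, against 0.89, 0.75, 0.28 and 0.39 in water cultures. It stood at 2.84, 2.83, 3.04 and 3.08 in TPA cultures, against 0.33, 0.48, 0.56 and 0.30 in DMSO cultures. The treated groups were each above their vehicle, TPA highest, and the effects of 1.33 with NM-203 and 2.53 with TPA differed by -1.19 ± 0.20 (adjusted p = 9.65e-05). Pappa, a protease that frees insulin-like growth factor, had effects of -1.26 with NM-203 and -3.39 with TPA and was above background on 1 TPA array and all 12 others; its difference of 2.13 (adjusted p = 0.00359) was 0.45 with normexp (adjusted p = 0.228).

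Casp12, a caspase tied to the endoplasmic reticulum in mouse, stood at 0.44, 0.51, 0.63 and 0.63 in NM-203 cultures, against 0.36, 0.49, 0.21 and 0.40 in water cultures, and at 1.27, 1.20, 1.37 and 1.42 in TPA cultures, against 0.26, 0.28, 0.45 and 0.54 in DMSO cultures. TPA arrays stood above all others, while NM-203 and water overlapped. Its effects of 0.19 with NM-203 and 0.94 with TPA differed by -0.75 ± 0.14 (adjusted p = 0.00035, and 0.127 with the arrays centred on their median). Cyb561, a transmembrane electron carrier, rose 5.02-fold with TPA and had an NM-203 effect of -0.79 (adjusted p = 0.26). Of 34 genes of sterol and fatty acid synthesis 4 rose and 4 fell with NM-203, 8 rose and 1 fell with TPA, and 5 were called lower in the difference, among them Nsdhl with effects of -0.13 with NM-203 and 1.03 with TPA and Tm7sf2 with -1.41 with NM-203 and 0.38 with TPA. That share of 14.7% is close to the 14.8% of all genes, and with the arrays centred on their median 1 gene rose with TPA and 1 difference was called; within slide 1 both counts were 0.

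Growth control and adhesion genes also divided. Over all genes tested NM-203 raised 14% and lowered 19.1%, TPA raised 4.89% and lowered 6.78%, and 14.8% were called in the difference. The share called in the difference was 36.4% in the CDK inhibitor and p53 list, 33.3% in the growth factor list and 39.1% in the integrin list. It was 35.7% in the TGF-beta list and 34.6% in the actin list. Of 33 CDK inhibitor and p53 target genes 8 rose and 15 fell with NM-203, 3 rose and 4 fell with TPA, and 5 were called higher and 7 lower; with the arrays centred on their median 6 rose and 5 fell with NM-203, and 5 were higher and 2 lower. Ccng2, a cyclin of resting cells, had effects of -1.81 with NM-203 and -0.02 with TPA, the stress-induced Sesn1 of -1.48 with NM-203 and -0.33 with TPA, and the exonuclease Aen of 0.95 with NM-203 and -0.11 with TPA. Of 36 growth factor and receptor genes 3 were called higher and 9 lower: the hormone Fgf21 had effects of 3.30 with NM-203 and 1.33 with TPA, and the ligands Gas6 and Igf1 of -2.47 and -1.53 with NM-203, and -0.71 and -0.01 with TPA. Of 23 integrin, cadherin and junction genes 1 was called higher and 8 lower, and the collagen receptor subunit Itga11, at -2.63 with NM-203 and -0.11 with TPA, had the largest difference. Among 28 genes of the TGF-beta list 2 were higher and 8 lower, Ltbp2 with -2.13 with NM-203 and -0.47 with TPA and Bmp1, a protease that trims procollagen, with -1.5 with NM-203 and -0.33 with TPA. Of 26 actin, contractile and YAP or SRF target genes 6 were called higher and 3 lower (4 and 1 with the arrays centred on their median). Among the higher ones, the smooth muscle actin gene Acta2 had effects of 0.28 with NM-203 and -0.66 with TPA. The YAP target Ankrd1, also higher, had effects of 1.19 with NM-203 and 0.09 with TPA. After centring on the array median the growth factor list had 2 differences called higher and 5 lower, the integrin list 0 and 5, and the TGF-beta list 0 and 5.

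Calls among genes of particle uptake and inflammation went in both directions, and the only metallothionein gene called was higher. The share called was 16.2% in the lysosome list, 20% for NF-kB and 16.7% for metallothionein, near the 14.8% of all genes. It was 42.1% for scavenger receptors and 31.2% for the inflammasome. In the lysosome list 16 genes fell and 1 rose with NM-203, and 8 fell and 0 rose with TPA. Its median effect was -0.30 with NM-203 and -0.30 with TPA. Of 37 lysosome and phagosome genes 1 was higher and 5 lower, of 19 scavenger receptor genes 2 and 6, of 16 inflammasome genes 2 and 3, of 15 NF-kB genes 1 and 2, and of 6 metallothionein genes 1 and 0. Centring on the array median made these 1 and 0 for the lysosome list, 2 and 3 for scavenger receptors, 1 and 1 for the inflammasome, and 0 and 0 for both NF-kB and metallothionein, so that all lower calls of the lysosome list were lost. The cathepsin Ctss had effects of 0.77 with NM-203 and -0.40 with TPA and the cytokine Il18 of -1.60 with NM-203 and -0.34 with TPA. The engulfment receptor Mertk, above background on 0 NM-203 arrays, was at least 2.91-fold lower with NM-203 and had a TPA effect of -1.13. Stab1, a scavenger receptor, was above background on 4 TPA arrays, 0 NM-203 arrays and 2 arrays of each vehicle, with a TPA effect of 1.39. Over the 34 lists the share called in the difference ran from 1.67% in the mitotic list, with 14.7% in the sterol list the next, to 82.5% in the Myc list, beside 14.8% of all genes.

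The cells were fibroblasts by their markers, and those markers moved with the treatments. Each of 12 fibroblast markers was above background; summed as intensities relative to the 75th percentile they reached 546 to 734 on NM-203 arrays, against 834 to 967 on water arrays, and 774 to 848 on TPA arrays, against 941 to 1070 on DMSO arrays. In the difference 6 of the 12 were called lower, among them Pdgfra with effects of -0.99 with NM-203 and 0.07 with TPA and Lum with -3.17 with NM-203 and -2.10 with TPA. Of 12 macrophage markers 5 were never above background on the 16 arrays, Ptprc and Adgre1 among them, and the sum over the 8 tested was 16 to 21.4 with NM-203, against 19.8 to 28.5 with water, and 22.3 to 27.3 with TPA, against 20.3 to 24.9 with DMSO. Endothelial markers summed to 0.217 to 0.311 with NM-203, against 0.378 to 0.478 with water, and 0.371 to 0.418 with TPA, against 0.335 to 0.48 with DMSO, with 2 of 8, Tek and Tie1, never above background. Epithelial sums were 0.434 to 0.611 with NM-203, against 0.539 to 0.689 with water, and 0.503 to 0.612 with TPA, against 0.588 to 0.661 with DMSO, with 3 of 9, Epcam, Cdh1 and Krt19, never above background. Adipocyte sums were 0.698 to 0.767 with NM-203, against 0.538 to 0.82 with water, and 0.595 to 0.773 with TPA, against 0.631 to 0.737 with DMSO, with 1 of 7, Adipoq, never above background. The part of the fibroblast markers' shift in the matrix results was not tested.

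The other treatments of the study place both effects in a wider frame, given side by side since the NM-203 doses and diatomaceous earth share their water arrays. The median effect on the Myc and ribosome list was 0.03 with NM-203 at 1 µg/cm², 0.20 at 2 µg/cm² and 1.27 at 5 µg/cm². It was 0.11 with TPA, 1.00 with Min-U-Sil 5 at 20 µg/cm² against its own water control, and 0.02 with diatomaceous earth at 5 µg/cm². The G2 and mitosis medians were 0.77, 1.62 and 1.99 over the NM-203 doses, 2.07 with TPA, 1.54 with Min-U-Sil 5 and 0.75 with diatomaceous earth. The number of mitotic genes called higher was thus 58 of 60 at 2 µg/cm², where 14 of 40 Myc and ribosome genes were. That number was 8 at 1 µg/cm² and 25 with diatomaceous earth, where 14 and 181 of all genes tested were called higher. Over all 32489 genes tested, those called higher numbered 5248 at 2 µg/cm², 4549 at 5 µg/cm², 1589 with TPA and 3773 with Min-U-Sil 5. The middle NM-203 dose was scanned wholly on a day without any of these water arrays, so dose and scan day cannot be told apart there. For interferon stimulated genes the medians were 0.37, 0.73 and 0.93 over the NM-203 doses, 0.43 with TPA, 0.17 with Min-U-Sil 5 and 0.51 with diatomaceous earth.

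**Figure D4:**
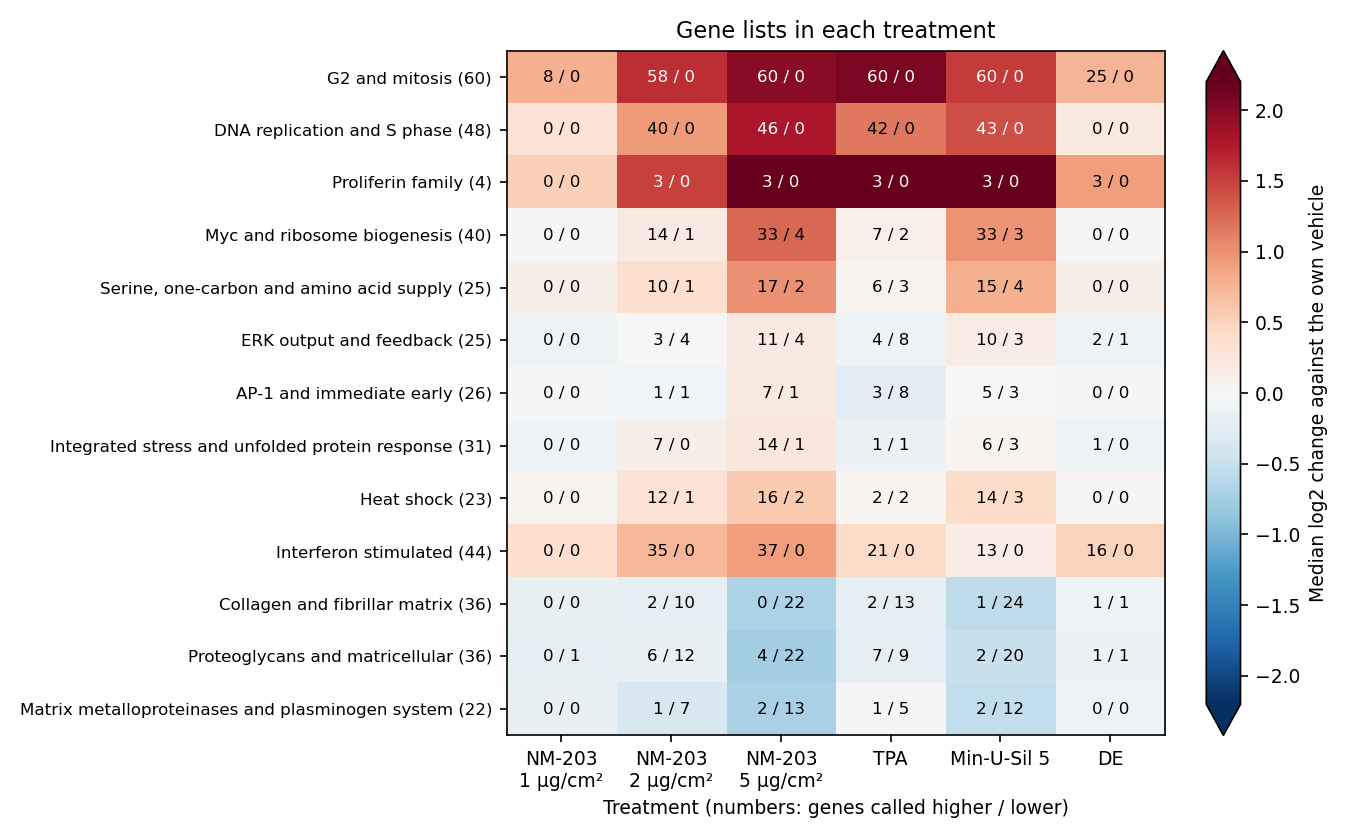
Colour gives the median log2 change of 13 gene lists, each against the own vehicle, for NM-203 at 1, 2 and 5 µg/cm², TPA, Min-U-Sil 5 and diatomaceous earth (DE); the numbers in each cell are the genes called higher and lower, and the number of genes tested stands in parentheses. The G2 and mitosis row is high from NM-203 at 2 µg/cm² on and with TPA and Min-U-Sil 5, while the Myc and ribosome row has 33 genes called higher with NM-203 at 5 µg/cm² and with Min-U-Sil 5, and 7 with TPA. The G2 and mitosis row also has 8 genes called higher with NM-203 at 1 µg/cm² and 25 with DE, with medians of 0.77 and 0.75. Over all 32489 genes tested, 4549 were called higher with NM-203 at 5 µg/cm², 3773 with Min-U-Sil 5 and 1589 with TPA.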

How the data were processed

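RNA of 36 Bhas 42 cultures was labelled with Cy3 and hybridised to 1-colour Agilent arrays, 4 arrays a group. The deposited scanner files hold spot intensity values that, per the file headers, Feature Extraction 11.0.1.1 had corrected for background. The deposited value table is on a log2 scale; 33 of its 36 columns matched their own array, the other 3 are not among the 16 arrays compared, and it was used as an alternative. From the intensities log2 values were taken and each array's 75th percentile over 59305 non-control spots was subtracted. Outlier spots were left out, spots of a probe averaged, and 40676 probes kept that were well above background on at least 3 arrays of a group. Probes were named through RefSeq accessions (GRCm38.p6, 32994 of 56605 probes); the brightest probe stood for a gene.

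limma 3.58.1 in R 4.3.3 was fitted to 32489 genes on all 36 arrays with 9 group means (27 residual degrees of freedom) and moderated by empirical Bayes, with Benjamini-Hochberg adjustment and calls at 0.05. The procedure was tested on simulated data. Their noise was independent between genes and arrays and held no slide effect, so that test does not bear on the slides. For a gene with 0 arrays of a group well above background, the fold is given as "at least", against the mean over its arrays of the lowest signal well above background or the gene's own, whichever is higher. Genes named are those of the largest difference in each pattern of calls, up to 4 a list, and any member of the lists of protein kinase C, ERK, AP-1, proliferins and prostaglandins; others are said to be chosen after their values were seen. The members and lists were chosen with earlier results of these data known. Same-numbered arrays of different groups did not deviate together and were not paired. The number of arrays limits the precision.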

Additional observations from a re-analysis of the deposited data

Results flagged for a closer look

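Each named gene was looked at in each group of 4 arrays, which makes 516 groups. In 30 of the 516 groups 1 value stood apart from the other 3. Its gap to the nearest of them, as a share of the whole range, was above Dixon's 95% critical value. Chance gives about 1 in 20 groups. All values are log2 levels relative to the array's 75th percentile, and none was tested for a cause. Among NM-203 arrays, replicate 4 stood apart in 7 genes: Hbegf at -2.24, Nop56 at 4.08, Prim1 at 2.38 and Rrp12 at 1.87 lay below the others, and Mmp9 at -0.568, Prkcd at 2.08 and Tm7sf2 at -0.834 above them. NM-203 replicate 3 stood apart in Col16a1 at 2.12, Ddx21 at 1.31 and Fos at -2.32, and replicate 2 in Smoc2 at -5.85. Among water arrays, Aox1 was at -1.60 and Cdt1 at 1.51 in replicates 2 and 3, Plxdc1 at -5.11 and Slc7a1 at 3.43 in replicate 4, and Stab1 at -6.39 in replicate 3. Among TPA arrays, replicate 2 was below the others in Hk2 at -1.31, Il1rn at -7.67, Rsad2 at -1.16 and Slc16a1 at 1.4, while Prkcd was at 1.79 in replicate 3 and Ptgir at -4.21 in replicate 1. Among DMSO arrays, replicate 1 stood apart in Ereg at -2.76, Orc1 at -2.38, Prl2b1 at -5.50 and Ptgds at 0.80, replicate 3 in Prkce at -1.42, and replicate 4 in Chac1 at 3.97, Col5a3 at 0.938 and Thbs1 at 5.15.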

How the results depend on the processing

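The cause of the changes below was not tested. The count of called differences of effects (4807) stayed within 1.5 times under normexp with quantile normalization, the deposited table, both other filters on dim probes, the mean over probes, 16 arrays alone, array weights, and the slide, the scan day or the replicate number as a block. Genes changed alike (749) numbered 1165 with normexp. Centring arrays on their median, which put the median NM-203 effect over all genes at 0.107, gave 1983 differences, 1746 TPA calls, 28 opposite and 55 alike genes. Array weights gave 6367 TPA calls, 307 opposite genes, 1415 alike and 2 between the vehicles. Within slide 1 there were 304 differences, 5630 NM-203 and 459 TPA calls, 4 opposite, 8 alike and 16 between the vehicles; fewer arrays entered. NM-203 against TPA arrays without controls differed in 7646 genes. Leaving out 1 array in turn gave 4077 to 5224 differences, 9589 to 10734 NM-203 calls, 2844 to 3984 TPA calls, 101 to 160 opposite genes, 493 (without TPA replicate 4) to 739 alike, and 0 to 0 between the vehicles. Same-numbered arrays correlated at a mean of 0.0212 in their deviations and were not paired, and with the replicate block 4748 differences were called. Arrays of different groups and numbers correlated at a mean of 0.109 on the same slide and -0.0461 on different slides. For same-numbered arrays these means were 0.142 and -0.0191. Among named genes, the difference of 8 lost its call with normexp (Pappa, Ptgir, Ptger1, Gas6, Hspa9, Mertk, Lum and Eif2ak3), 13 with median centring (Dgka, Dgkz, Prl2c1, Prl2c5, Casp12, Ptgfr, Ptger1, Igf1, Hspa9, Nsdhl, Eif2ak3, Mxd1 and Mxi1) and 77 within slide 1. No difference of a named gene turned its sign and was called under the alternatives run. Genes below background have bounds only.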
